A study of Homo sapiens with 6 samples.

Results

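CXCL9, CXCL10 and CXCL11 are chemokines that bind the receptor CXCR3, and all 3 were found by gene name among the 58735 genes of the expression table. Their transcripts were measured by poly(A) RNA-seq in U251, an established human glioblastoma line. The NC group (n = 3) was given the same volume of sterile deionized water, and the TNF-α group (n = 3) received 10 ng/mL of tumor necrosis factor-α for 24 h. No other agent or allele was named for either group, and the labels call the libraries of a group independent biological replicates without saying how the cultures were separated, so p-values measure only the spread between these libraries, which may be partly technical. Of the 3 chemokines, 2 had an FPKM (fragments per kilobase of exon, scaled for depth) of 1 or more in 3 or more libraries, which was the condition for entering the genome-wide test. CXCL10 and CXCL11 were higher in each TNF-α library than in any NC library, whereas CXCL9 was at or near 0 in both groups.

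Chemokines are small secreted proteins that guide migrating cells along a gradient. CXCL9, CXCL10 and CXCL11 act on CXCR3, a G protein-coupled receptor of activated T cells and natural killer cells, and are known for drawing these cells into inflamed tissue and tumors, including those of the brain. They were first described as genes induced by interferon-γ. TNF-α, acting through the transcription factor NF-κB, can also raise CXCL10 and CXCL11, alone or together with interferons.

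The libraries held 31992167 to 37897044 reads in genes. The make-up of TNF-α replicates 2 and 3 was unlike that of the other 4. Only 16.6% and 17.9% of reads fell in genes over 8 kb there, where the remaining libraries had 28.8% to 29.1%. The 992 tested genes of 1 to 2 kb, the length class of CXCL10 and CXCL11, had median log2 ratios to the NC mean of 0.925 and 0.816 in these libraries and of -0.040 in TNF-α replicate 1. The total by which FPKM was scaled was 0.693 and 0.759 of the reads in genes in these libraries and 0.925 to 0.959 in the others, so that 1 read counted for more FPKM there at a given number of reads. This difference lies within the TNF-α group, so the main results below are also given for TNF-α replicate 1 against the 3 NC libraries. That fit takes the spread of the lone TNF-α library to be that of the NC libraries.

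To show the sequence in front of these genes, the bases upstream of each RefSeq transcription start are given below, 5′ to 3′ on the coding (minus) strand of chromosome 4 of GRCh38. Capitals mark matches, on either strand, to the κB consensus bound by NF-κB, to GAAANNGAA (the core of the interferon-stimulated response element, ISRE), to TTCNNNGAA (the interferon-γ-activated site, GAS), to TGANTCA (AP-1) and to TATAAA. CXCL9 is shown over chr4:76007510-76007759 and CXCL10 over chr4:76023498-76023747, 250 bases each. For CXCL11, the GENCODE 29 transcript CXCL11-201 starts at 76036197, upstream of the RefSeq start at 76036070, so 127 of the 250 bases lie in its annotated exon. Only 30 bases around the κB and AP-1 matches of CXCL11 are shown, at chr4:76036132-76036161. These 30 bases lie inside that exon, as does the TATAAA match described below.
CXCL9: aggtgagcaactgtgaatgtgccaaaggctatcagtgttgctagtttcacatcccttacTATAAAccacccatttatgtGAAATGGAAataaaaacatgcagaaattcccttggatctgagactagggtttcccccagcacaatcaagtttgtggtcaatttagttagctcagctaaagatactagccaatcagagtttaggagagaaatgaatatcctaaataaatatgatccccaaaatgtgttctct
CXCL10: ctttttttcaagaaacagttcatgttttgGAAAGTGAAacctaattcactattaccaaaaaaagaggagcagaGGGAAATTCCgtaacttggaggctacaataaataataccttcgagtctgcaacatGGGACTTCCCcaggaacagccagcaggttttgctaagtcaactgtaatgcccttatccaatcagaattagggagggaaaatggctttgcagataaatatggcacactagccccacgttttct
CXCL11: tgcaTGACTCAaagaGGGAAATTCCtgtgc
CXCL10 had κB matches, GGGAAATTCC at -177 to -168 and GGGACTTCCC at -122 to -113 from the start, and an ISRE core at -221 to -213. CXCL11 had the same 10 bases, GGGAAATTCC, at -76 to -67, next to an AP-1 match at -87 to -81, with a TATAAA match at -42 to -37 and a GAS match at -240 to -232. CXCL9 had no full κB match in this window, and held an ISRE core at -171 to -163 and a TATAAA match at -191 to -186. Only full matches were sought, so κB-like sequences that nearly match are not marked in any window. Over 27305 RefSeq promoter windows of 250 bases, 5.05% held a κB match and 0.645% held matches at 2 or more positions. The other motifs were found in 7.06% (GAAANNGAA), 6.78% (TTCNNNGAA), 6.6% (TGANTCA) and 11.1% (TATAAA) of them. No match overlapped another in the 3 windows. A match describes letters only, and binding was not measured.

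**Figure D1:**
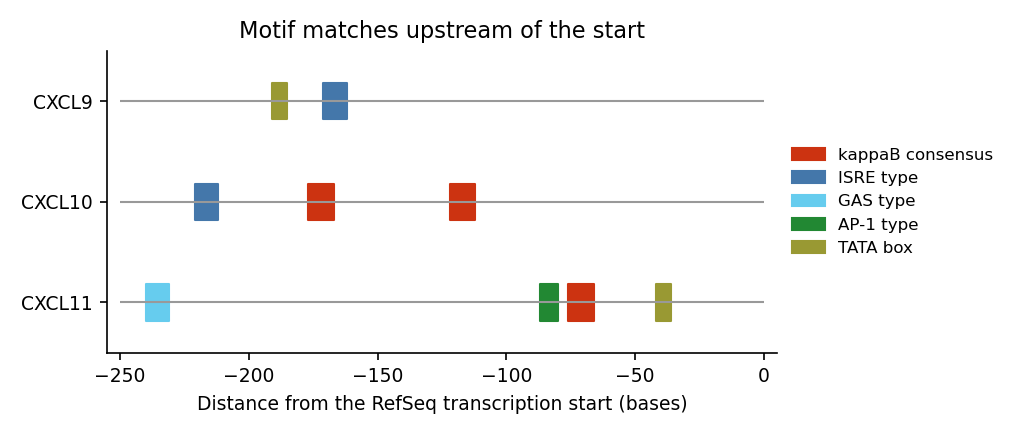
Motif matches in the 250 bases upstream of the RefSeq transcription start of CXCL9, CXCL10 and CXCL11 (x axis, distance in bases; colored boxes, matches on either strand). CXCL10 has κB matches at -177 and -122 and CXCL11 has one at -76, while the CXCL9 window has no full match (near matches were not sought).

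The coding sequences are short, at 378, 297 and 285 bases for CXCL9, CXCL10 and CXCL11 in the GENCODE 29 transcripts CXCL9-201, CXCL10-201 and CXCL11-201. All belong to the CXC class, named for a pair of cysteines with 1 residue between them. Chemokines of this class that attract neutrophils, such as CXCL8 and CXCL2, carry a glutamate-leucine-arginine (ELR) motif directly before the first cysteine, and the CXCR3 ligands are known to lack it. The 36 bases around the CXC codons are shown to place this difference in class, with capitals for the 3 codons at the ELR position followed by the 3 codons of CXC.
CXCL9: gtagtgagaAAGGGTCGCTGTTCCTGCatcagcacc
CXCL10: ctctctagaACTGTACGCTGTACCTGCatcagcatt
CXCL11: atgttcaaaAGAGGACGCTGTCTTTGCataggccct
CXCL8: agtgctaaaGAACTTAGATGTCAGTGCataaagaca
CXCL2: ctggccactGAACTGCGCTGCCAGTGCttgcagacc

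CXCL10, also known as IP-10, was the most abundant of the 3 transcripts and rose with TNF-α. CXCL10 (ENSG00000169245, GRCh38 chromosome 4, 76021117 to 76023497, minus strand, 1176 exonic bases in 4 exons) measured 8.31, 7.1 and 7.62 FPKM in NC replicates 1 to 3, compared with 119, 116 and 166 FPKM in TNF-α replicates 1 to 3. These values came from 353, 274 and 288 NC reads and from 4493, 3550 and 4735 TNF-α reads. The groups did not overlap, and the lowest TNF-α library stood 14.0-fold above the highest NC library. The mean went from 7.68 ± 0.603 to 134 ± 27.8 FPKM (SD, n = 3 each), 17.4-fold higher. On the log2(FPKM + 1) scale the difference was 3.94 ± 0.18 (SE; 95% confidence interval 3.50 to 4.38; limma, Benjamini-Hochberg adjusted p = 0.000833), the 3rd largest rise of all 12136 genes tested. The exact two-sided permutation test gave p = 0.1, the smallest p that 3 against 3 libraries allow. TNF-α replicate 1 alone against the NC libraries gave 3.79 (limma adjusted p = 2.9e-05), so the difference was of like size without the libraries that stood apart. Among all tested genes, CXCL10 moved from the 50.8th to 55.6th percentile of FPKM in the NC libraries to the 94.9th to 97.7th in the TNF-α libraries. In a bulk sample, more expressing cells and more RNA per cell cannot be told apart.

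CXCL11, also known as I-TAC and the ligand with the highest known affinity for CXCR3, rose as well from a lower level. CXCL11 (ENSG00000169248, chromosome 4, 76033682 to 76041415, minus strand, 1908 exonic bases, 2 annotated transcripts) measured 1.81, 2.32 and 1.99 FPKM under NC, compared with 23.7, 20.6 and 28.4 FPKM under TNF-α. The reads behind these values were 125, 145 and 122 in the NC group and 1453, 1021 and 1314 in the TNF-α group. Again no TNF-α library came near the NC range, with a gap of 8.9-fold between the nearest libraries. The mean rose from 2.04 ± 0.256 to 24.2 ± 3.89 FPKM (SD, n = 3 each), 11.9-fold. The log2 difference was 3.05 ± 0.16 (SE; 95% confidence interval 2.66 to 3.43; limma adjusted p = 0.00104), the 12th largest rise, and the exact permutation p was again 0.1. With TNF-α replicate 1 alone it was 3.03 (limma adjusted p = 7.6e-05). CXCL11 went from the 14.6th to 20.3rd percentile of tested genes in the NC libraries to the 74.0th to 82.5th in the TNF-α libraries.

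Both tested members were therefore called higher, where 0.717% of all tested genes were called higher and 1.01% were called in either direction. Groups without overlap, with TNF-α higher, were found in 14.8% of all tested genes. The call of both genes held in all 19 other settings and omissions tried, with log2 fold changes of 3.54 to 4.09 for CXCL10 and of 2.65 to 3.50 for CXCL11. A correction for gene length, a property in which TNF-α replicates 2 and 3 differed from the rest, gave the lowest values, 3.54 (limma adjusted p = 0.00171) for CXCL10 and 2.65 (limma adjusted p = 0.00578) for CXCL11.

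**Figure D2:**
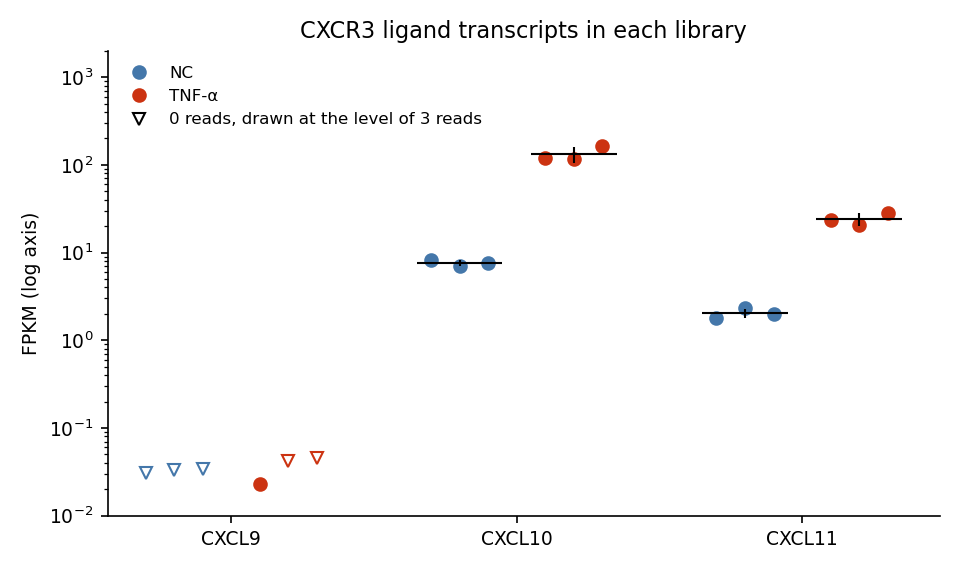
FPKM of CXCL9, CXCL10 and CXCL11 in each of the 6 libraries (y axis, logarithmic; filled circles, single libraries, NC in blue and TNF-α in red; black bars, mean ± SD of 3 libraries; open triangles, libraries with 0 reads, drawn at the FPKM that 3 reads would give). CXCL10 lies at 116 to 166 FPKM and CXCL11 at 20.6 to 28.4 FPKM in the TNF-α libraries, above all NC libraries, while CXCL9 has 2 reads in TNF-α replicate 1 and none elsewhere.

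**Figure D3:**
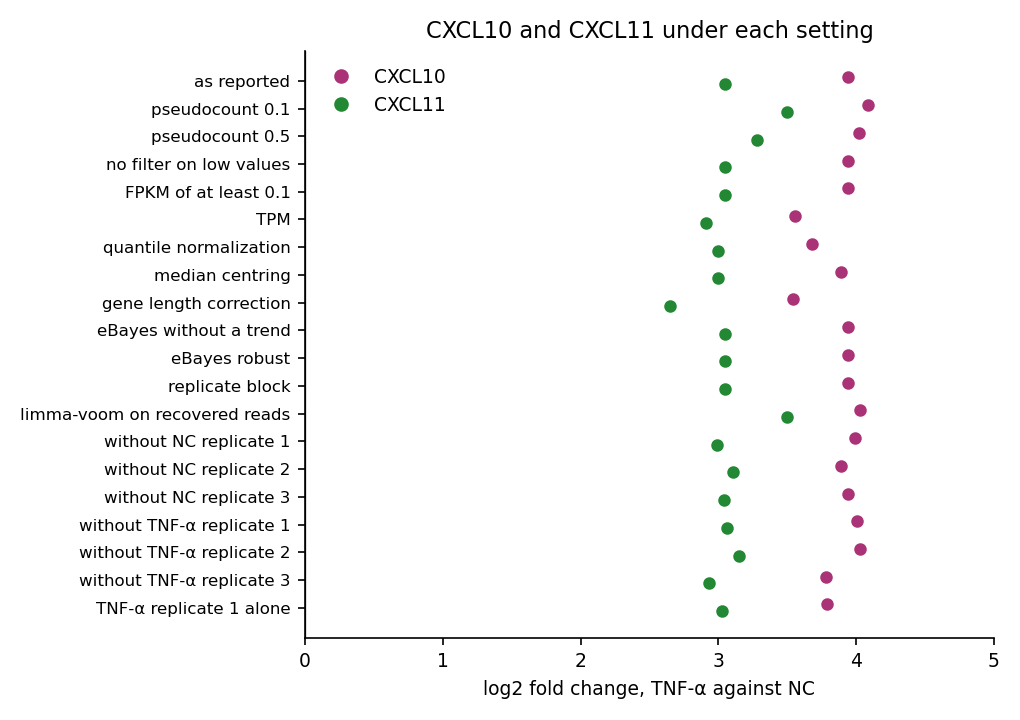
Log2 fold change of CXCL10 (purple) and CXCL11 (green), TNF-α against NC, as reported and in each of 19 other settings or omissions of a library (rows). All points lie right of 0, between 3.54 and 4.09 for CXCL10 and between 2.65 and 3.50 for CXCL11.

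CXCL9, also known as MIG and among the 3 the one most tightly tied to interferon-γ, was not detected beyond 2 reads in 1 library. CXCL9 (ENSG00000138755, chromosome 4, 76001275 to 76007488, minus strand, 2740 exonic bases in 4 exons) had 0 reads in the 3 NC libraries and in TNF-α replicates 2 and 3, and 2 reads (0.0227 FPKM) in TNF-α replicate 1. A count of 0 allows up to 3 reads, which is 0.0303 to 0.0341 FPKM under NC, and 0.0422 and 0.0451 FPKM in TNF-α replicates 2 and 3. CXCL9 did not pass the filter and no fold is given. The exact permutation p was 1, and in a fit of 31662 genes with no filter its limma adjusted p was 0.722. A difference below these limits was not detectable at this depth, and the limits cover counting error only.

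The order of the levels was the same in all 6 libraries, with CXCL10 above CXCL11 and CXCL11 above CXCL9. FPKM is a level per length, so genes can be compared on it. In TNF-α replicates 2 and 3 FPKM also shifted with gene length, so ratios between genes of unlike length are less sure there. With CXCL9 set at its limit of 3 reads, CXCL10 was at least 274-, 213- and 224-fold above CXCL9 in NC replicates 1 to 3, and at least 2757- and 3677-fold above it in TNF-α replicates 2 and 3. In TNF-α replicate 1, where CXCL9 had 2 reads, the ratio was 5234 (95% counting interval 1449 to 43220). CXCL11 exceeded CXCL9 by at least 58- to 69-fold in the NC libraries and by at least 489- and 629-fold in TNF-α replicates 2 and 3, and the ratio in TNF-α replicate 1 was 1043 (289 to 8615).

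The mix of CXCL10 and CXCL11 was compared next. The ratio of CXCL10 to CXCL11 FPKM was 4.58, 3.07 and 3.83 under NC, compared with 5.02, 5.64 and 5.85 under TNF-α. Each TNF-α value was above each NC value, though the lowest TNF-α ratio was close to the highest NC ratio. The ratios of 5.64 and 5.85 came from TNF-α replicates 2 and 3, the libraries that stood apart in gene length. The means were 3.83 ± 0.758 and 5.50 ± 0.432 (SD, n = 3 each). As a log2 ratio of FPKM + 1 the difference between groups was 0.89, and without a pseudocount it was 0.54. The exact permutation p was 0.1, or 0.125 after adjustment over the 5 chemokine ratios compared, so a shift in the mix is not established with 3 libraries a group. In shares of the summed reads of the 3 genes, CXCL10 took 73.8%, 65.4% and 70.2% under NC, compared with 75.5%, 77.7% and 78.3% under TNF-α. The exact (Clopper-Pearson) 95% interval of NC replicate 1, 69.7% to 77.7%, overlapped that of each TNF-α library, that of NC replicate 3, 65.6% to 74.6%, overlapped only that of TNF-α replicate 1, and that of NC replicate 2, 60.6% to 69.9%, overlapped none. CXCL11 took nearly all of the rest, and CXCL9 took 0.0336% (0.00407% to 0.121%) of 5948 reads in TNF-α replicate 1.

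**Figure D4:**
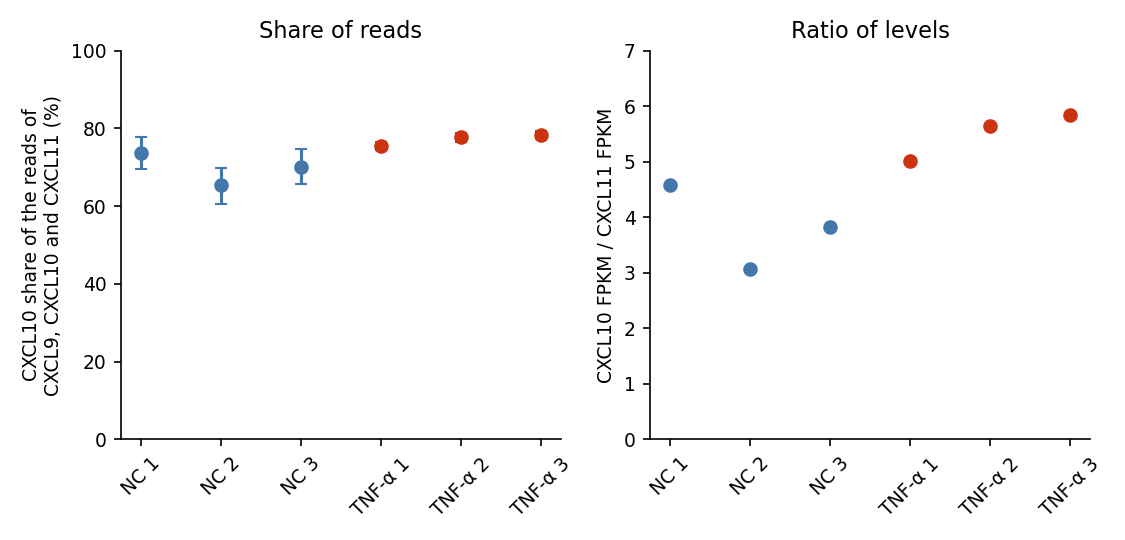
Left, share of CXCL10 in the summed reads of CXCL9, CXCL10 and CXCL11 in each library (points; bars, exact 95% binomial interval, counting error only). Right, ratio of CXCL10 to CXCL11 FPKM in each library. Shares run from 65.4% to 73.8% in NC and from 75.5% to 78.3% in TNF-α, and ratios from 3.07 to 4.58 and from 5.02 to 5.85.

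To place the ligands within the chemokine family, 38 chemokine genes were ranked by FPKM in each library. These were the 3 ligands and a chosen list that does not hold every chemokine. CXCL10 was 2nd in all 3 NC libraries and 2nd, 3rd and 2nd in TNF-α replicates 1 to 3, behind CXCL8, the neutrophil attractant, and in replicate 2 also behind CCL2, the monocyte attractant. CXCL11 ranked 8th, 4th and 7th under NC, compared with 4th, 5th and 4th under TNF-α. As a share of the summed FPKM of these 38 genes, CXCL10 held 14.3%, 12.6% and 14.4% in the NC group and 13%, 15.4% and 17.3% in the TNF-α group. CXCL11 held 3.13%, 4.12% and 3.75%, then 2.6%, 2.72% and 2.96%. The CXCL10 shares of the groups overlapped, and those of CXCL11 were lower in all 3 TNF-α libraries.

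Of the 35 other chemokines listed, 8 passed the filter and 4 of them were called higher, where 0.717% of all tested genes were. At an unadjusted limma p under 0.05, 7 of the 8 were higher and 0 lower, where 12.3% of all tested genes were higher. Values of 7 of the 8 were without overlap and higher in TNF-α, beside 14.8% of all tested genes. CCL2 stood at 1.94, 2.09 and 2.12 FPKM in NC and at 81.7, 145 and 151 FPKM in TNF-α (log2 difference 5.33, limma adjusted p = 0.000833). CXCL8 was at 30.5, 31.6 and 26.5 FPKM and then at 638, 418 and 548 FPKM (4.12, limma adjusted p = 0.000996). CXCL2 and CXCL3, further ligands of the neutrophil receptor CXCR2, rose by 3.09 and 2.83 (limma adjusted p = 0.000665 for each). These 4 calls held without any 1 library, and TNF-α replicate 1 alone gave 4.76 for CCL2, 4.39 for CXCL8, 2.97 for CXCL2 and 2.86 for CXCL3. CCL5, a chemokine that also attracts T cells, was at 2.76, 2.12 and 2.76 FPKM in NC and at 3.25, 6.81 and 8.74 FPKM in TNF-α, and its difference of 0.96 did not pass the test (limma adjusted p = 0.195). The median log2 difference of the 8 tested genes was 1.89, against 0.04 for all genes tested. Within libraries, the log2 ratio of CXCL10 to CXCL8 differed by -0.18 between groups (exact permutation p = 0.6), with values of -2.01 to -1.67 in NC and of -2.41 to -1.72 in TNF-α. The log2 ratio of CXCL10 to CCL2 was 1.39 to 1.66 in NC and -0.31 to 0.54 in TNF-α, a difference of -1.39 with no overlap (exact permutation p = 0.1, adjusted over the 5 ratios 0.125).

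**Figure D5:**
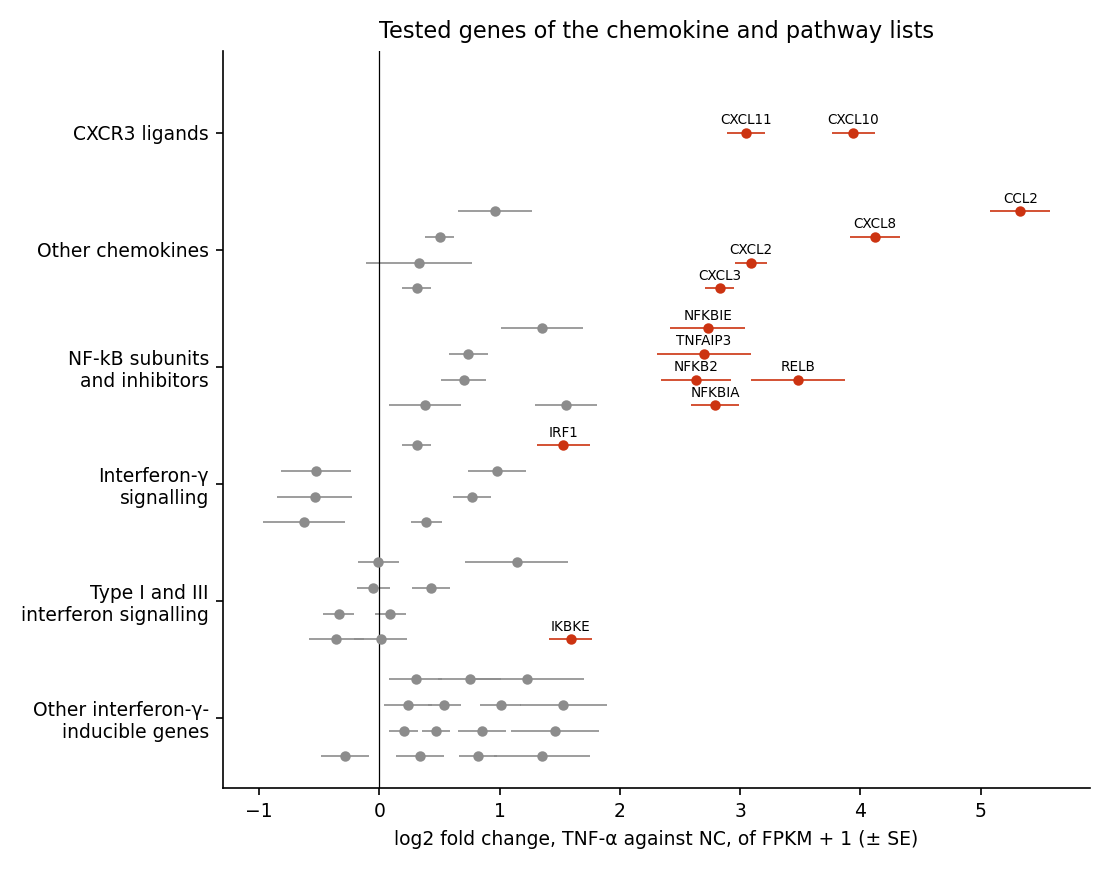
Log2 fold change of FPKM + 1, TNF-α against NC, for the tested genes of each list (points; bars, SE of the limma fit; red, limma adjusted p under 0.05, named; grey, not called). CXCL10 at 3.94 and CXCL11 at 3.05 lie beside CCL2, CXCL8, CXCL2, CXCL3 and the called NF-κB genes, while IRF1 and IKBKE are the called genes of the interferon signalling lists.

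The receptor and most genes that act on the ligands outside the cell were at trace level. CXCR3 had 2, 0 and 3 reads under NC, compared with 0, 0 and 2 under TNF-α. ACKR3, an atypical receptor that takes up CXCL11, had 10, 6 and 18 reads and then 11, 1 and 4. DPP4, the peptidase that trims these ligands at their N-terminus, had 0, 2 and 7 reads in NC and 15, 12 and 14 in TNF-α, without overlap but too low for the test. The list of 9 genes also held the chemokine genes PF4 and PF4V1, with 0 reads in all libraries. Of the 9, only the aminopeptidase ANPEP passed the filter, at 4.44 to 4.95 FPKM in NC and 6.26 to 7.45 FPKM in TNF-α. Its log2 difference of 0.44 did not pass the test (limma adjusted p = 0.193).

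The interferon-γ pathway, for which the CXCR3 ligands are the classic readout, showed 1 call among its 8 tested genes of 10. Over all tested genes, 0.717% were called higher. At an unadjusted limma p under 0.05, 5 of the 8 were higher and 0 lower, where 12.3% of all tested genes were higher. Values of 5 of the 8 were without overlap and higher in TNF-α, beside 14.8% of all tested genes. IFNG itself had 0 reads in all 6 libraries. The receptor genes IFNGR1 and IFNGR2 differed by 0.39 (limma adjusted p = 0.195) and 0.77 (limma adjusted p = 0.106). IRF1, a transcription factor that both interferon-γ and NF-κB can induce, was at 4.61, 5.18 and 5.74 FPKM in NC and at 11.9, 20.2 and 19.7 FPKM in TNF-α and rose by 1.53 (limma adjusted p = 0.0429). This call was near the threshold, and without any 1 NC library or TNF-α replicate 2 or 3 it was lost (limma adjusted p up to 0.291) at log2 differences of 1.41 to 1.76 over the omissions, as with the correction for gene length (limma adjusted p = 0.0553), while TNF-α replicate 1 alone gave 1.07 (limma adjusted p = 0.00479). The median of the 8 genes was 0.35, and -0.08 after scaling to TPM (FPKM rescaled to the same sum in every library), which moves the median of all genes to -0.42. Some members were lower in TNF-α replicates 2 and 3 only. JAK1 was at 19.7 to 21 FPKM in NC and at 23.1, 9.41 and 9.72 FPKM in TNF-α. JAK2 was at 4.06 to 4.39 FPKM and then at 4.93, 1.55 and 2.05 FPKM. Without TNF-α replicate 1, 5 of the 8 were called higher and 3 lower, but 79.4% of all tested genes were then called, and 42.6% were called higher.

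Type I and III interferon genes also gave 1 call, among 9 tested genes of 13, where 0.717% of all tested genes were called higher. At an unadjusted limma p under 0.05, 3 of the 9 were higher and 1 lower, where 12.3% of all tested genes were higher. IFNB1, the gene of interferon-β, was at 0.612, 1.31 and 0.87 FPKM in NC and at 0.507, 1.08 and 1.29 FPKM in TNF-α, with a log2 difference of 0.01 (limma adjusted p = 0.962). IKBKE, a kinase that acts upstream of IRF3 and is itself a known NF-κB target, rose from 4.29 ± 0.787 to 14.9 ± 2.47 FPKM (SD, n = 3 each), by 1.59 on the log2 scale (limma adjusted p = 0.0197). The call was lost without any 1 NC library or TNF-α replicate 2 or 3 (limma adjusted p up to 0.168; log2 differences of 1.48 to 1.71 over the omissions) and on the TPM scale (limma adjusted p = 0.0731), and TNF-α replicate 1 alone gave 1.34 (limma adjusted p = 0.00736). The median over the 9 genes was 0.01.

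Among NF-κB subunits and inhibitors, 5 of 10 tested genes of 11 were called higher and 0 lower (9 and 0 at an unadjusted p under 0.05, and 4 and 0 called by limma-voom). The gene that did not pass the filter was REL, at 0.569, 0.602 and 0.52 FPKM in NC and at 0.922, 0.041 and 0.0563 FPKM in TNF-α. At that unadjusted cut 12.3% of all tested genes were higher, while 0.717% were called higher in the limma fit and 0.684% by limma-voom. RELB, a subunit of the non-canonical pathway, was at 6.31, 5.9 and 8.34 FPKM in NC and at 46.8, 130 and 105 FPKM in TNF-α, and rose by 3.48 (limma adjusted p = 0.0185). NFKBIA, the inhibitor IκBα, rose by 2.79 (limma adjusted p = 0.00415), from 13.6 ± 0.735 to 102 ± 23.1 FPKM (SD, n = 3 each). NFKBIE, a further inhibitor, and NFKB2, the precursor of p52, rose by 2.73 (limma adjusted p = 0.0202) and 2.63 (limma adjusted p = 0.0173). TNFAIP3, the feedback enzyme A20, was at 57.6 FPKM in TNF-α replicate 1 and at 18.9 and 26.8 FPKM in replicates 2 and 3, against 3.44 to 4.22 FPKM in NC, and rose by 2.70 (limma adjusted p = 0.0421). The subunits RELA and NFKB1 differed by 0.70 (limma adjusted p = 0.194) and 0.74 (limma adjusted p = 0.121). The median was 2.09. Leaving out 1 library other than TNF-α replicate 1 gave 0 to 2 calls. Leaving out TNF-α replicate 1 gave 9 calls, all higher, where 42.6% of all tested genes were called higher. With TNF-α replicate 1 alone against NC the median was 1.54, where that of all genes was -0.01. The TNFAIP3 call was also lost on the TPM scale (limma adjusted p = 0.178) and by limma-voom.

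Other genes inducible by interferon-γ, among them the guanylate-binding proteins, antigen-processing genes and IDO1, gave 0 calls among 15 tested genes of 22 in the limma fit, with 10 at an unadjusted p under 0.05, all higher (12.3% of all tested genes were), and 0 calls by limma-voom on the recovered reads. Their median log2 difference was 0.75, beside 0.04 for all genes. It was 0.25 on the TPM scale, where the median of all genes was -0.42, and 0.27 after quantile normalization, where that of all genes was 0.01. With the correction for gene length it was 0.56, again with 0 calls. The values of 12 of the 15 were without overlap and higher in TNF-α, beside 14.8% of all genes tested. TNF-α replicate 1 alone against NC gave a median of 0.60, where that of all genes was -0.01. Without TNF-α replicate 1 there were 11 higher calls and 1 lower, but 79.4% of all tested genes were then called, and 42.6% were called higher.

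Genes whose log2(FPKM + 1) followed the ligands most closely over the 6 libraries were then listed among 10438 protein-coding tested genes. For CXCL10 the highest Pearson correlations were those of VEGFC, a lymphatic growth factor (r = 0.9996), CXCL2 (0.9991), the kinase NUAK2 (0.9987), the nucleolar protein NOP58 (0.9984) and the lysosomal protease CTSS (0.9984). For CXCL11 they were NUAK2 (0.9995), NOP58 (0.9985), DRAM1, a regulator of autophagy (0.9985), VEGFC (0.9981) and CXCL3 (0.9968), and CXCL10 and CXCL11 had r = 0.9967 with each other. The 6 libraries form 2 groups, so such values mostly describe the step between groups and are given without a p. VEGFC went from 18.6 ± 0.227 to 48 ± 3.38 FPKM and CTSS from 0.425 ± 0.0573 to 5.78 ± 0.591 FPKM (SD, n = 3 each). The step was small for NOP58, from 36.7 ± 0.158 to 43.7 ± 0.545 FPKM, and was not called (log2 difference 0.24, limma adjusted p = 0.199).

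The 3 ligand genes lie within 40.1 kb of chromosome 4, in the order CXCL9, CXCL10, CXCL11 by coordinate. Their exons overlap no exon of another gene. ART3, an ADP-ribosyltransferase-family gene on the opposite strand that spans CXCL10 and CXCL11, had 0, 1 and 2 reads in NC and 4, 4 and 9 in TNF-α. The annotated antisense gene AC112719.2 had 2, 0 and 0 reads and then 2, 0 and 0, and the pseudogene AC112719.1 had none. The tested neighbors did not pass the test. SDAD1, 10.3 kb below CXCL9, differed by -0.17 (limma adjusted p = 0.533), NUP54, 73.2 kb above CXCL11, by -0.17 (limma adjusted p = 0.358), and SCARB2 by -0.12 (limma adjusted p = 0.495). NAAA was at 0.528 to 0.747 FPKM over the 6 libraries, and PPEF2 and FAM47E had at most 11 reads in a library.

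Markers of other cell types were near 0. Summed over 9 leukocyte markers, the level was 0.874 to 1.18 FPKM in NC and 0.660 to 1.68 FPKM in TNF-α, with 0 reads of PTPRC, CD3E and MS4A1 in all 6 libraries. Most of this sum was CD14, at 0.66, 0.825 and 0.759 FPKM in NC and at 0.528, 1.55 and 1.2 FPKM in TNF-α, followed by CSF1R, at 0.181 to 0.332 and 0.0899 to 0.128 FPKM. The 5 endothelial markers summed to 0.190 to 0.209 FPKM in NC and to 0.255 to 0.511 FPKM in TNF-α. None of these 14 genes passed the filter. Of 6 glial markers, 5 passed, and the summed level was 568 to 618 FPKM in NC and 675 to 1200 FPKM in TNF-α. VIM, the filament vimentin, made up most of the sum, at 325 to 362 FPKM in NC and at 434, 974 and 850 FPKM in TNF-α (log2 difference 1.05, limma adjusted p = 0.195). SOX2, a stem cell factor, was at 58.9 to 66.3 FPKM in NC and at 57.8, 22.6 and 30.4 FPKM in TNF-α (-0.84, limma adjusted p = 0.195), and the median of the 5 was 0.03. GFAP, the astrocyte filament, was at 8.16, 7.1 and 9.47 FPKM in NC and at 1.58, 2.6 and 2.39 FPKM in TNF-α and fell by 1.54 on the log2 scale (limma adjusted p = 0.0210), a call lost without any 1 NC library or TNF-α replicate 2 or 3 (limma adjusted p up to 0.166; log2 differences of -1.64 to -1.40 over the omissions) and with the correction for gene length (limma adjusted p = 0.132). TNF-α replicate 1 alone gave -1.83 (limma adjusted p = 0.00158). S100B, the glial marker that did not pass, was at or near 0.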

How the data were processed

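Per the labels, the submitters' processing notes name HISAT2 2.0.5, StringTie 1.3.3b and featureCounts 1.5.0. Whether counting used strand is not given in the sources used here. The deposited values are FPKM per gene computed by the authors, and gene names, positions and exonic lengths of all 58735 genes equal those of GENCODE 29 (GRCh38). FPKM times length gave whole reads for 100% of values above 0 (within 0.01 of a whole number). The table's 6 columns of other samples were not used.

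Genes with an FPKM of 1 or more in 3 or more libraries were fitted on log2(FPKM + 1) with limma 3.58.1 (R 4.3.3; eBayes with trend, two-sided), with Benjamini-Hochberg adjustment over all 12136 genes and a threshold of 0.05. On simulated data the fit recovered the changed genes, and false calls were on average more frequent than the threshold allows. The simulated libraries were drawn from the NC means, with the same spread for every gene and only large changes. They lacked the shift with gene length seen within the TNF-α group, so the rate of false calls in the real fit is not known from them. Ratios were tested by exact permutation in scipy 1.17.1.

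The 3 chemokines and all lists were chosen with earlier results of these data known. Named genes were the members, 14 pathway genes (1 is not reported here), up to 5 called genes per list, the 5 most alike genes per member and neighbors in the locus. ANPEP, JAK1, JAK2, REL, VIM, SOX2, S100B, CD14, CSF1R, PTPRC, CD3E and MS4A1 were named after their values were seen. Alternatives were other pseudocounts, filters and scalings, a gene length correction, other eBayes options, a replicate block, limma-voom on the recovered reads, and omission of libraries. Promoters came from RefSeq (GRCh38.p14), coding bases from GENCODE 29.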

Additional observations from a re-analysis of the deposited data

How the results depend on the processing

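CXCL10 and CXCL11 were higher with TNF-α and past the limma threshold in all 19 alternatives, with adjusted p of 5.9e-06 to 0.0196 and of 8.0e-06 to 0.0255, and log2 fold changes of 3.78 to 4.03 and 2.93 to 3.15 when 1 library was left out. The number of genes called, 123 in the reported fit (87 higher), was 58 without the filter, 58 on the TPM scale, 185 after quantile normalization, 24 with the replicate number as a block and 732 with TNF-α replicate 1 alone, and ran from 10 (without NC replicate 2) to 9630 (without TNF-α replicate 1) when 1 library was left out. limma-voom on the recovered reads called 109. Whether the replicate numbers pair the libraries could not be told. Deviations of same-numbered libraries from their group means correlated at -0.01, -0.18 and 0.12, and those of differently numbered libraries at -0.16 to 0.18. TNF-α replicates 2 and 3 stood apart from replicate 1, and such a split can hide a pairing. With the block, CXCL10 kept 3.94 (adjusted p = 0.0164) and CXCL11 kept 3.05 (0.0217). The TNF-α minus NC difference in the log2 ratio of CXCL10 to CXCL11 was 0.54 without a pseudocount (chosen after seeing the data). It was 0.59 with a pseudocount of 0.1 and 0.65 on the TPM scale, beside 0.89 with FPKM + 1. For CXCL10 to CXCL9 this difference was 3.93 with FPKM + 1 and 3.52 on the TPM scale. For CXCL11 to CXCL9 it was 3.03 with FPKM + 1 and 3.40 with a pseudocount of 0.1. With CXCL9 at or near 0 reads, the differences against CXCL9 mostly restate the rises of CXCL10 and CXCL11. Depth limited CXCL9, CXCR3 and DPP4, each at 15 reads or fewer in every library.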
